A study of Rattus norvegicus with 8 samples.

Results

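A set of 10 genes used as markers of liver sinusoidal endothelial cells were examined in the livers of rats fed diets of different phosphorus content. The 10 listed genes were Lyve1, Stab1, Stab2, Kdr, Pecam1, Fcgr2b, Mrc1, Oit3, Ehd3 and Flt4. Every probe set that the annotation of the array gave to one of these symbols alone was taken, which found 11 probe sets for 9 genes and none for Oit3. A probe set was counted as measured where its highest and lowest arrays lay at least 0.05 apart on the log2 scale. By that rule 6 probe sets of 5 markers (Kdr, Stab2, Lyve1, Fcgr2b and Mrc1) were measured, out of 4155 measured probe sets among 31042 and 2808 measured genes among 14217.

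The study asked how a high intake of phosphorus alters gene expression in the liver. Liver RNA of male Wistar rats was hybridised to oligonucleotide arrays, 1 array for each of 8 rats. The control group (n = 4 arrayed) received an AIN-93G based diet with 0.3% phosphorus for 24 days. The high phosphorus (HP) group (n = 4 arrayed) received the same base diet with 1.2% phosphorus, also for 24 days. The arrayed rats were a subset of each fed group, those whose kidneys had been arrayed in an earlier study. The rats were 4 weeks old when obtained, were acclimatised for 7 days and were 8 weeks old when the livers were taken. All values are log2 expression values as the authors deposited them, summarised over the probes of each probe set, and a difference of 1 is a doubling. The RNA was of whole liver, so a marker of a rare cell type is read against the RNA of all other cells. The arrays were on a like scale, with medians over all probe sets of 6.65 and medians over measured probe sets from 8.76 to 8.81.

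Sinusoidal endothelial cells line the capillaries of the liver. They lack a continuous basement membrane, carry open pores called fenestrae through which plasma reaches the hepatocytes, and clear waste molecules from the blood through scavenger and Fc receptors. Their maintenance depends on vascular endothelial growth factor (VEGF), which hepatocytes and stellate cells supply and which acts through the receptor that Kdr encodes. No marker of the list is expressed in these cells alone: Kdr and Pecam1 are found in endothelium generally, Lyve1 and Flt4 also in lymphatic endothelium, and Mrc1, Fcgr2b and Stab1 also in macrophages.

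Every measured marker had a higher mean in the HP diet-fed rats, by 0.08 to 0.26 on the log2 scale, and Kdr and Stab2 had the largest differences. Both were called higher by rank products, the test of the study, at a false discovery rate (FDR) under 0.05, and no marker was called lower. None of the measured markers passed limma at an adjusted p under 0.05, and limma called no probe set of the whole array at that threshold in either direction (0% of 4155, smallest adjusted p 0.156). At an unadjusted limma p under 0.05, Kdr and Stab2 were the 2 markers that were higher and none was lower, where 5.37% of all measured probe sets were higher and 7.29% lower. Rank products called 8.5% of the measured probe sets higher and 11.9% lower, equal to 1.14% and 1.59% of all 31099 probe sets that were ranked.

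**Figure D1:**
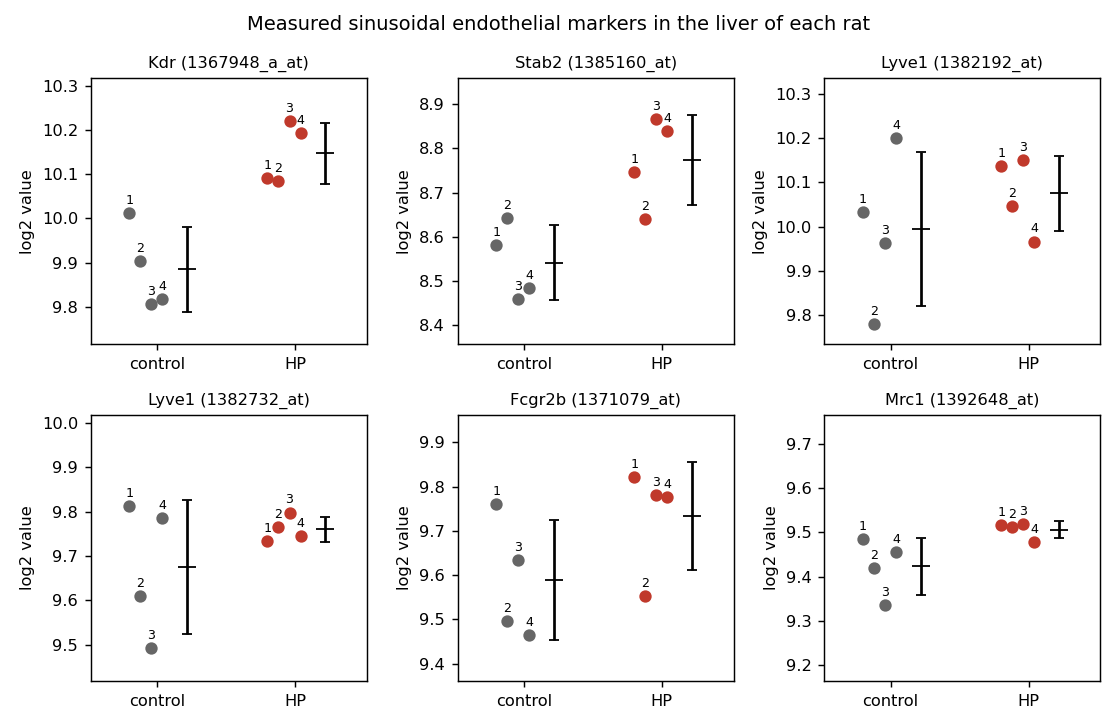
Log2 value of each measured marker probe set (y axis, 0.6 log2 units in every panel) in each rat, by diet (x axis), with the rat number above each point and bars for mean ± SD (n = 4). The 4 HP points of Kdr lay above all control points, those of Stab2 and Mrc1 overlapped the control points narrowly, and those of both Lyve1 probe sets and Fcgr2b overlapped them widely.

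Because Kdr and Stab2 were the markers that rank products called, the bases before their start sites are shown, from RefSeq on the GRCr8 assembly. Kdr lies at chr14:32572031-32615204, and the stretch shown, chr14:32571813-32572030 on the + strand, holds the 218 bases before the annotated gene. Stab2 lies at chr7:23136938-23342633, and the stretch shown, chr7:23320563-23320812 on the - strand, holds the 250 bases before a start site that sits 22071 bases inside the annotated extent of the gene. Capitals mark the only match found to the searched motifs.
Kdr: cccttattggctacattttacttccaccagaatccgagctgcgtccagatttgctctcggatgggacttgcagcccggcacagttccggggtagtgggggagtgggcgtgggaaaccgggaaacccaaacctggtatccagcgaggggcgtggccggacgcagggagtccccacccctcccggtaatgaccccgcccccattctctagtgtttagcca
Stab2: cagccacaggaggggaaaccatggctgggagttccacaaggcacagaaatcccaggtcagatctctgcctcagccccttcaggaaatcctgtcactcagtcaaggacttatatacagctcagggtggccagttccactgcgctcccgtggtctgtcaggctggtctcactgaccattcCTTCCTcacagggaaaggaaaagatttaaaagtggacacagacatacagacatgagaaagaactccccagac

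Short motifs of factor families active in endothelium were searched on both strands of the 250 bases before each start site: AGATAA for GATA factors, AGGAAG for ETS factors, ACAAAG for SOX factors, TGTTTAC for forkhead factors and TGACTCA for AP-1. They were found in 10.3%, 29.5%, 16.3%, 3.21% and 4.05% of 33469 rat windows of that length. The Kdr window held none of the 5. The Stab2 window held AGGAAG on the opposite strand, 72 to 67 bases before the start site, printed above as its reverse complement. Of the other measured markers, Lyve1 (GRCr8, chromosome 1, 174393387 to 174410977) had 1 AGGAAG match and Mrc1 (chromosome 17, 82157725 to 82239411) had 2. For Fcgr2b (chromosome 13, 85725897 to 85740517) the gene is named only. A match describes the letters of the window and was not a measurement of binding.

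Kdr encodes VEGF receptor 2, the main signalling receptor for VEGF-A on endothelial cells. Its measured probe set (1367948_a_at) read 10.01, 9.90, 9.81 and 9.82 in control rats 1 to 4 and 10.09, 10.09, 10.22 and 10.19 in HP rats 1 to 4. Every HP diet-fed rat lay above every control rat, with 0.07 between the closest rats of the groups. Such a separation, all HP above all control, was seen in 3.1% of measured probe sets, and its opposite in 4.07%. The means were 9.88 ± 0.10 and 10.15 ± 0.07 (SD, n = 4 each), a difference of 0.26 (SE 0.06, 95% confidence interval 0.12 to 0.40) or 1.20-fold. The adjusted p was 0.217 by limma and the rank products FDR for higher expression was 0.0110. The second Kdr probe set (1397868_at) stood at 6.65 on all 8 arrays and carried no measurable difference.

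Stab2 encodes stabilin-2, an endocytic receptor that removes hyaluronan and other ligands from the blood. Its probe set (1385160_at) read 8.58, 8.64, 8.46 and 8.49 in control rats 1 to 4 and 8.75, 8.64, 8.87 and 8.84 in HP rats 1 to 4. The groups overlapped at a single pair, since HP rat 2 lay below control rat 2 by 0.0015, and the other 3 HP diet-fed rats were above all controls. The means were 8.54 ± 0.09 and 8.77 ± 0.10 (SD, n = 4 each), a difference of 0.23 (SE 0.07, 95% confidence interval 0.07 to 0.40) or 1.17-fold. The adjusted p was 0.320 by limma and the rank products FDR was 0.0210. Its relative Stab1, which encodes stabilin-1, stood at 7.45 on every array and was not measured by the rule.

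The rank products calls of Kdr and Stab2 depended on the probe sets ranked with them and on the rats included, as did the calls over the whole array. Rank products called 353 probe sets higher with all probe sets and all rats. It called 25 higher when only measured probe sets were ranked, and 126, 84, 90 and 110 without HP rats 1, 2, 3 and 4 in turn. When only the measured probe sets were ranked, the FDR was 0.554 for Kdr and 0.635 for Stab2. With all probe sets ranked, the Kdr call was lost without HP rat 2 (FDR 0.0604), HP rat 3 (0.0735) or HP rat 4 (0.0653), and the Stab2 call without HP rat 1 (0.0883), HP rat 2 (0.0599), HP rat 3 (0.120) or HP rat 4 (0.103).

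Fcgr2b encodes an inhibitory Fc receptor that takes up small immune complexes in the sinusoid. Its probe set (1371079_at) read 9.76, 9.50, 9.63 and 9.47 in control rats 1 to 4 and 9.82, 9.55, 9.78 and 9.78 in HP rats 1 to 4. The 3 HP diet-fed rats other than rat 2 lay above all controls, while HP rat 2 lay below 2 of them. The difference was 0.14 (95% confidence interval -0.05 to 0.34), with an adjusted p of 0.489 by limma and a rank products FDR of 0.0671. Leaving out 1 rat at a time gave an FDR from 0.0287 to 0.245, under 0.05 only without control rat 1, the highest control. Without that rat, rank products called 580 probe sets higher over the whole array, against 353 with all rats.

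Mrc1 encodes the mannose receptor, which clears glycoproteins and collagen fragments and is shared with macrophages. Its probe set (1392648_at) read 9.48, 9.42, 9.34 and 9.45 in control rats 1 to 4 and 9.52, 9.51, 9.52 and 9.48 in HP rats 1 to 4. The HP values lay within 0.04 of each other, and only HP rat 4 fell below a control, rat 1, by 0.0067. The difference was 0.08 (95% confidence interval -0.03 to 0.20), with an adjusted p of 0.502 by limma and a rank products FDR of 0.103. Without control rat 3, the lowest control, the difference was 0.05.

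Lyve1 encodes a hyaluronan receptor of sinusoidal and lymphatic endothelium and had 2 measured probe sets. The first (1382192_at) read 10.03, 9.78, 9.96 and 10.20 in control rats 1 to 4 and 10.14, 10.05, 10.15 and 9.97 in HP rats 1 to 4. The second (1382732_at) read 9.81, 9.61, 9.49 and 9.79 in control rats 1 to 4 and 9.73, 9.77, 9.80 and 9.75 in HP rats 1 to 4. In both, the control rats spread over a wider range than the HP diet-fed rats (0.42 against 0.18, and 0.32 against 0.06), and all HP values lay inside the range of the controls. The differences were 0.08 (95% confidence interval -0.12 to 0.28) and 0.09 (-0.09 to 0.26), with adjusted p values of 0.708 and 0.625 by limma and rank products FDRs of 0.260 and 0.593. Without control rat 2, the lowest control of the first, its difference was 0.01, and without control rat 3, the lowest of the second, its difference was 0.02. The difference between the spreads was not tested.

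The 4 other markers with a probe set were level on the arrays. Pecam1, the adhesion molecule of endothelial junctions, stood at 7.19, Ehd3, which takes part in endosomal recycling, at 6.74, and Flt4, the receptor for VEGF-C and VEGF-D, at 6.65. With Stab1 and the second Kdr probe set, these 5 probe sets spanned at most 0.000507 over the 8 arrays, while the smallest span of a measured marker was 0.183. A level value does not show that the gene was absent or that it did not differ between the diets, because the summary of the authors returns a near constant value where the probes of a set do not vary together.

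**Figure D2:**
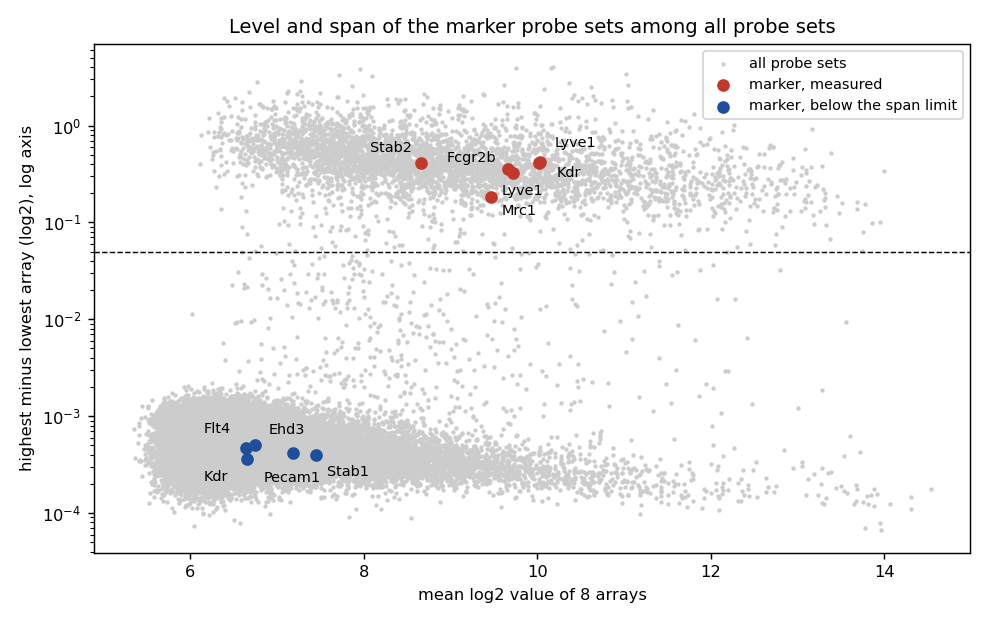
Mean log2 value of each probe set over 8 arrays (x axis) against its highest minus lowest array (y axis, log2 units on a log axis), with measured markers in red, markers below the limit of 0.05 (dashed line) in blue and all probe sets in grey. The 6 measured marker probe sets lie between spans of 0.183 and 0.421, and the 5 level ones at or below 0.000507.

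All 6 measured marker probe sets had a positive difference, with a median of 0.11, where 43.5% of all measured probe sets were positive and their median was -0.02. The count is not 6 independent results, since the probe sets share the same 8 rats and 2 of them belong to Lyve1. Scaling changed the overlap of the groups for Stab2 and Mrc1, which as deposited overlapped by 0.0015 and 0.0067, and for no other measured marker. After each array was centred on the median of its measured probe sets, or after quantile normalisation, all HP diet-fed rats lay above all control rats for 3 markers, Kdr, Stab2 and Mrc1, where 4.14% and 3.73% of measured probe sets did so. The differences then were 0.28 and 0.28 for Kdr, 0.25 and 0.24 for Stab2, and 0.10 and 0.10 for Mrc1. In a whole-liver sample, a change in the number of sinusoidal cells and a change in the RNA of each cell cannot be told apart.

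For a reading rat by rat, the deviations of both measured Lyve1 probe sets were averaged. The HP diet-fed rats stood above the mean of all 8 rats for 5, 3, 5 and 4 of the 5 measured markers (rats 1 to 4). Control rats 1 to 4 stood above it for 3, 0, 0 and 1. The median deviation over the markers was 0.08, 0.03, 0.12 and 0.11 in HP rats 1 to 4 and 0.02, -0.11, -0.15 and -0.17 in control rats 1 to 4. Control rat 1 was therefore nearest to the HP diet-fed rats among the controls, and HP rat 2 nearest to the controls.

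Whether the markers moved together was read from the deviation of each rat from the mean of its own diet, which leaves out the diet difference. Over the 14 pairs of probe sets from different genes, 12 correlations were positive, the median r was 0.31 and the range was -0.35 to 0.93 (8 rats). After each array was centred on the median of its measured probe sets, 9 of the 14 were positive. The share of positive correlations among all measured probe sets was not computed, so these counts have no reference. The strongest pair was the second Lyve1 probe set with Mrc1, at r = 0.93 (exact permutation p = 0.0156, 0.234 after Benjamini-Hochberg adjustment over the 15 pairs computed) and rho = 0.88 (exact permutation p = 0.0799, adjusted 0.399). Its r was 0.68 without the 2 rats farthest from the median of Lyve1. Kdr and Stab2 followed at r = 0.78 (exact permutation p = 0.0365, adjusted 0.273) and rho = 0.71 (exact permutation p = 0.0729, adjusted 0.399), and at r = 0.86 without the 2 farthest rats. No pair passed the adjustment, and with the rats permuted within the diets in 576 ways the smallest possible p was 0.00174.

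The exceptions were the pairs of the first Lyve1 probe set with Stab2 (r = -0.35) and with Kdr (r = -0.18). Without the 2 rats farthest from the median of Lyve1, these r values were 0.19 and 0.21. In the same check, those of the second Lyve1 probe set with Stab2, Kdr and Fcgr2b became negative (-0.37, -0.28 and -0.25). The 2 Lyve1 probe sets themselves correlated at r = 0.56 (exact permutation p = 0.404, adjusted 0.778), a lower r than that of Kdr with Stab2, and the difference between these r values was not tested. The values of Kdr and Stab2 in each rat, unlike the deviations, include the diet difference. By these values HP rats 3 and 4 were highest and control rats 3 and 4 lowest for both markers. The order between them was not the same, since control rat 1 lay above control rat 2 for Kdr (10.01 and 9.90) and below it for Stab2 (8.58 and 8.64).

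**Figure D3:**
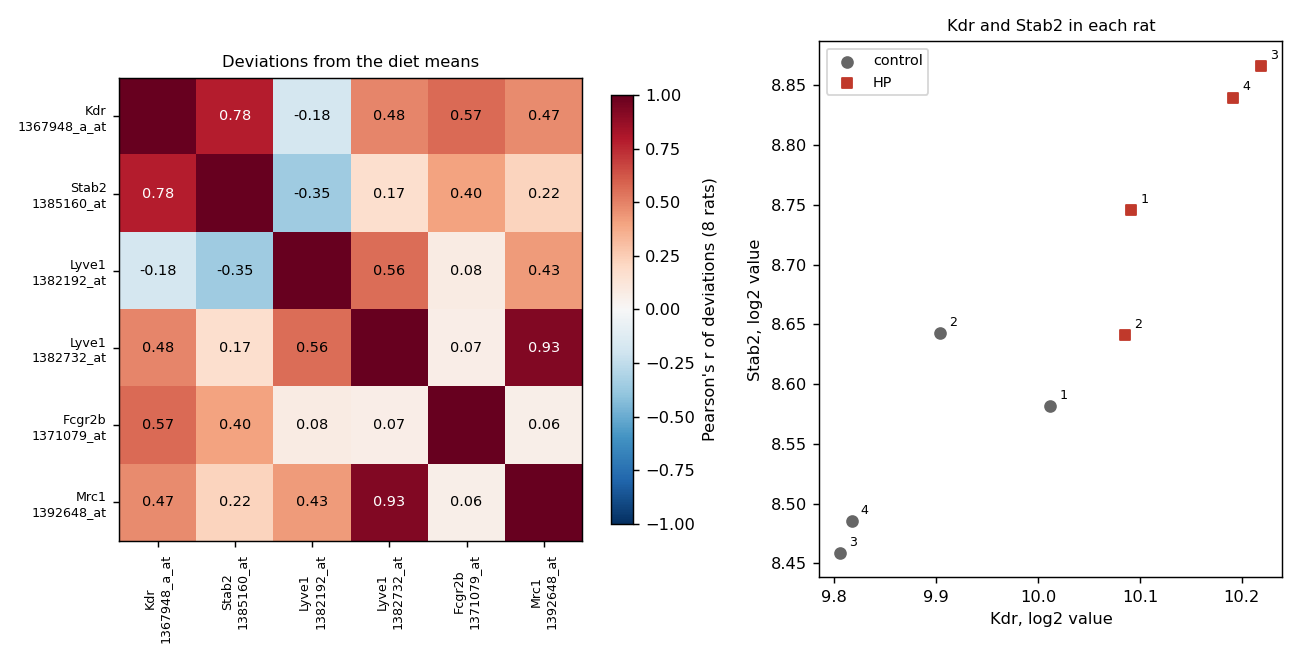
Left, Pearson's r of the deviations from the diet means between measured marker probe sets (8 rats, colour from -1 to 1). Right, Stab2 (y axis) against Kdr (x axis), log2 values in each rat with rat numbers, control in grey and HP in red. The pair Kdr and Stab2 stands at 0.78, and HP rats 3 and 4 lie at the upper right and control rats 3 and 4 at the lower left.

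The named genes closest to each marker by the same deviations, among 3297 measured probe sets with a single symbol, included no other marker in any first 3. Kdr was closest to Zfand6, Stx5 and Galnt11 (r from 0.97 to 0.98) and Stab2 to Xylb, Homer1 and LOC102550246 (0.86 to 0.89). Fcgr2b was closest to Rapgef4, Greb1l and Aebp2 (0.91 to 0.93). Mrc1 was closest to Clec4f (r = 0.97), the C-type lectin that marks Kupffer cells, then to Klf6 and Myc (0.95 each). The Lyve1 probe sets were closest to Degs1, Akr1d1 and Chuk (0.96 to 0.98) and to Decr1, Vnn1 and Eci1 (0.97 to 0.98). These are the highest of 3297 values over 8 rats, given as a description.

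The counts of the other gene lists stand beside the shares over all measured probe sets. Of all measured probe sets 43.5% were positive, and rank products called 8.5% higher and 11.9% lower. All HP diet-fed rats lay above all control rats in 3.1% of them and below in 4.07%. Of 38 other listed genes of sinusoidal endothelium, 13 were measured and 8 had a positive difference. Their differences ran from -0.15 to 0.21 with a median of 0.04, and rank products called 1 higher (Il6st, the shared receptor subunit of interleukin-6 family cytokines) and none lower. Il6st read 11.71, 11.04, 10.98 and 11.07 in control rats 1 to 4 and 11.46, 11.30, 11.52 and 11.36 in HP rats 1 to 4, a difference of 0.21 (adjusted p 0.544 by limma, rank products FDR 0.0414). Its 3 other measured probe sets differed by 0.10 to 0.28, and rank products called 2 of them. Control rat 1 lay above every HP diet-fed rat and the other 3 controls below them. Ctsl, the lysosomal protease cathepsin L, differed by 0.16 (adjusted p 0.380 by limma, FDR 0.0646), and Bmp2, a ligand through which these cells regulate hepatocyte iron handling, by 0.11 (adjusted p 0.527). Icam1, a leukocyte adhesion molecule, was 0.15 lower on average (adjusted p 0.596). The 13 genes thus held both signs and the 5 markers 1 sign, and this difference was not tested.

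Among 53 listed genes of endothelium in general, 7 were measured, with a median difference of 0.02, and 4 of these were positive. Bmpr2, a receptor for bone morphogenetic proteins, was called lower by rank products (FDR 0.0368, adjusted p 0.398 by limma), and all HP diet-fed rats lay below all control rats. It read 7.78, 7.74, 7.78 and 7.74 in control rats 1 to 4 and 7.71, 7.46, 7.55 and 7.64 in HP rats 1 to 4. Ptprb, the endothelial phosphatase that acts on VEGF and angiopoietin receptors, differed by 0.09 (adjusted p 0.628), Nr2f2, a venous identity factor, by 0.09 (adjusted p 0.618), and Jag1, a Notch ligand, by -0.08 (adjusted p 0.826). Of 7 lymphatic genes 2 were measured, and Prox1, which hepatocytes also express, differed by 0.08 and Reln, which stellate cells also express, by 0.00 at its brighter and -0.11 at its dimmer probe set.

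Vegfa, the ligand of Kdr, passed neither test. It read 9.59, 9.10, 9.11 and 9.34 in control rats 1 to 4 and 9.31, 9.00, 9.24 and 9.22 in HP rats 1 to 4, a difference of -0.09 (adjusted p 0.752 by limma). The other VEGF ligands, Flt1, the neuropilins, the angiopoietins and their receptors Tek and Tie1 were not measured by the span rule. Of the 8 measured genes of VEGF and angiopoietin signalling (26 listed), 3 were positive and the median was -0.08. Angptl4, an inhibitor of lipoprotein lipase that hepatocytes also secrete, was called higher by rank products (difference 0.38, FDR 0.00323, adjusted p 0.298 by limma), with all HP diet-fed rats above all control rats. Shc1, an adaptor of receptor tyrosine kinases, was called lower (difference -0.23, FDR 0.0302, adjusted p 0.339), and the hypoxia factor Epas1 differed by -0.12 (adjusted p 0.454).

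Of the scavenger receptors and the endocytic machinery, 6 of 32 listed genes were measured and 1 was positive, with a median of -0.12. That gene was Lamp2, a lysosomal membrane protein, which read 10.82, 10.78, 10.82 and 10.86 in control rats 1 to 4 and 11.03, 11.02, 10.93 and 11.06 in HP rats 1 to 4. All HP diet-fed rats lay above all control rats, and the difference of 0.19 was called by rank products (FDR 0.0236) and not by limma (adjusted p 0.217). Ly75, an endocytic receptor of dendritic cells and other leukocytes, was called lower by rank products (difference -0.47, FDR 0.0127, adjusted p 0.523), with HP rat 4 at 5.92 and the other HP diet-fed rats from 7.01 to 7.29. Cd163, the haemoglobin scavenger receptor of macrophages, differed by -0.20 (adjusted p 0.530) and Cd68, a macrophage lysosomal protein, by -0.15 (adjusted p 0.537).

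Since Mrc1 and Fcgr2b are shared with macrophages, the Kupffer cell list was read beside them. Of its 13 measured genes (21 listed), 1 was positive and the median was -0.08. Of all measured probe sets 43.5% were positive, with a median of -0.02. Rank products called 2 of the 13 lower and none higher, where it called 11.9% of all measured probe sets lower and 8.5% higher. The differences of Mrc1 and Fcgr2b were positive. Cd5l, a secreted protein of resident macrophages, differed by -0.33 (FDR 0.00935, adjusted p 0.245 by limma) with all HP diet-fed rats below all control rats, and Hmox1, the haem-degrading enzyme, by -0.18 (FDR 0.0395, adjusted p 0.415). Clec4f had means of 10.38 ± 0.21 and 10.34 ± 0.06 (SD, n = 4 each), a difference of -0.04. Csf1r differed by -0.15 and the lysozyme gene Lyz2 by -0.05. The mean level of the list was 8.84 to 9.16 in the control rats and 8.78 to 8.99 in the HP diet-fed rats. The part of macrophage RNA in the Mrc1 and Fcgr2b values was not tested.

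Stellate cells, fibroblasts and hepatocytes were read in the same way. Of 10 measured genes of stellate cells and fibroblasts (18 listed), 7 were positive, the median was 0.04 and none was called by either test. Lrat, the retinol-esterifying enzyme of stellate cells, differed by 0.14 (adjusted p 0.514 by limma), the matrix genes Col1a2 by 0.11, Dcn by 0.10 and Col3a1 by 0.03, the lectin gene Colec11 by 0.05 and the filament gene Vim by -0.07. Of 8 measured hepatocyte genes (16 listed), 3 were positive and the median was -0.07. The urea cycle enzymes Cps1 (-0.27, FDR 0.0179) and Ass1 (-0.24, FDR 0.0208) were called lower by rank products, each with an adjusted p of 0.217 by limma and all HP diet-fed rats below all control rats. Glul, the glutamine synthetase of cells around the central vein, differed by -0.19, and the secreted proteins Apob and Fgb by -0.03 and 0.00. The transcription factor Hnf4a had 2 measured probe sets of opposite sign. The brighter, counted in the list, differed by -0.10 (adjusted p 0.662 by limma), and the dimmer by 0.45 (adjusted p 0.320), which rank products called higher (FDR 0.00499). The mean level of the 5 sinusoidal markers was 9.44 to 9.57 in the control rats and 9.57 to 9.71 in the HP diet-fed rats. No gene of B cells, T and NK cells, platelets and neutrophils or bile ducts was measured, and the 1 measured red cell gene, Hbb, differed by 0.24 (rank products FDR 0.0293, adjusted p 0.454 by limma). These lists were described by counts and medians, and the difference between the lists was not tested.

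**Figure D4:**
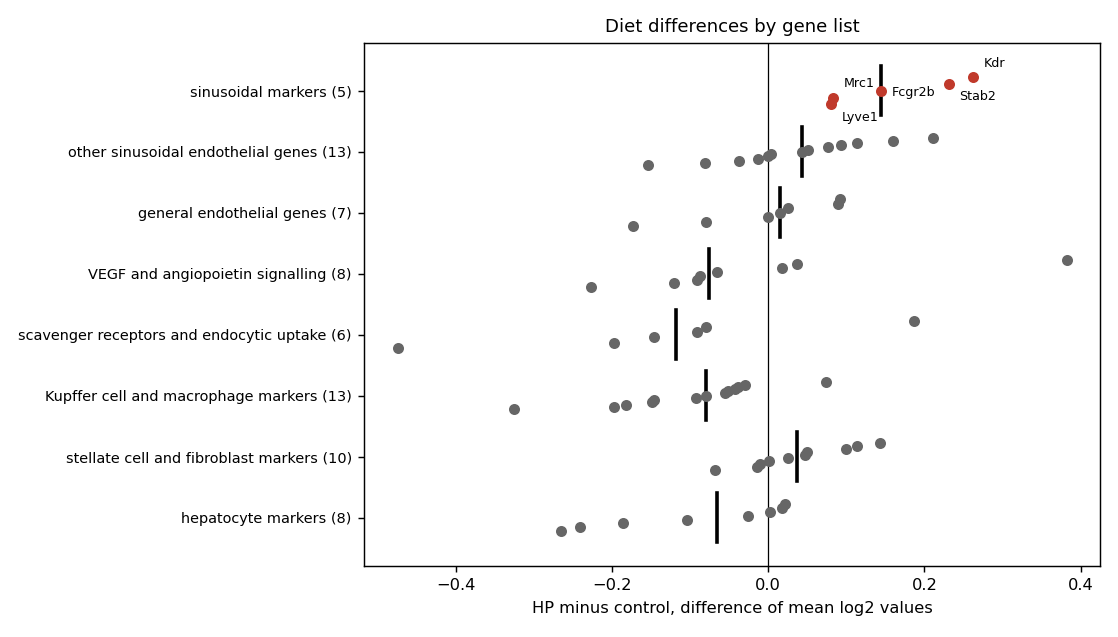
Difference of the mean log2 values, HP minus control (x axis), for each measured gene of a list (1 point a gene, number of genes in brackets), with the median of the list as a black bar and the sinusoidal markers in red. All 5 markers lie to the right of 0, from 0.08 to 0.26, while 1 of the 13 Kupffer cell genes does. Each other list drawn holds both signs. The lymphatic list (2 measured genes, differences 0.00 and 0.08) and the red cell list (1 measured gene, 0.24) are not drawn.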

How the data were processed

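Liver RNA of 8 rats (4 control, 4 HP) was measured on 1 array each. The authors deposited log2 values in which FARMS, run in R 2.13.1, had combined the probes of each probe set. No source used here states how the arrays were normalised to each other, and no normalisation was added. The number of arrays limits the precision.

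Groups came from the sample labels. The markers and gene lists were chosen with earlier results of these data known. Genes were named from probe sets with a single symbol (20826 of 31042, with 436 of several symbols and 9780 of none, after 57 control probe sets were left out). Probe sets spanning at least 0.05 (log2) over the 8 arrays (13.4%) were counted as measured. They were compared with limma 3.58.1 in R 4.3.3 (trend and robust empirical Bayes, two-sided, Benjamini-Hochberg adjustment over all 4155, adjusted p under 0.05). No pseudocount was used. Rank products followed the methods of the study: all probe sets were ranked over the 16 differences between an HP and a control array, with 1000 permutations (100 for each alternative) and an FDR under 0.05. Pairs of markers were compared by Pearson's r and Spearman's rho of deviations from the diet means, with two-sided exact permutation within the diets. No r over both diets together is given, because the diets lay apart for Kdr. Numpy 2.4.6 and scipy 1.17.1 were used, and the limma and rank products scripts were tested on simulated data.

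All markers were named. For each other list the genes past a threshold, the 4 largest differences and, for other cell types, the 2 brightest genes were named. In the lists, a gene with several probe sets stood at its brightest measured one. Rats with the same replicate number deviated together by r from -0.20 to 0.48. No reference from differently numbered rats is given, so this does not show whether the numbers pair rats. The main comparison was fitted with diet only. Alternatives were the span limit, dim probe sets, centring, quantile normalisation, array weights, the replicate block and each rat left out. Sequences came from RefSeq (GRCr8).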

Additional observations from a re-analysis of the deposited data

Results flagged for a closer look

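In 4 of the 84 diet groups examined (the markers and the named genes of the other lists, not the genes named for their likeness to a marker, in each diet), 1 rat stood far from the other 3, with a gap to its nearest neighbour that took more of the range of the group than Dixon's critical value for 4 samples allows. Chance gives this in about 1 group in 20. Among the markers it was Fcgr2b in the HP diet-fed rats, where rat 2 stood at 9.55 and the others from 9.78 to 9.82 (gap 0.83 of the range). Among the other genes it was Il6st, with control rat 1 at 11.71 and the other controls from 10.98 to 11.07 (0.868), Prox1, with HP rat 4 at 10.84 and the others from 10.14 to 10.24 (0.855), and Hbb, with control rat 2 at 11.64 and the others from 11.04 to 11.10 (0.905).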

How the results depend on the processing

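The 6 marker differences kept their positive sign and stayed short of the limma threshold in all 101 combinations of marker and alternative. Kdr ran from 0.24 to 0.30 (adjusted p 0.0553 to 0.492) and Stab2 from 0.20 to 0.28 (0.161 to 0.603), Fcgr2b from 0.10 to 0.20, Mrc1 from 0.05 to 0.10, and Lyve1 from 0.01 to 0.16 and from 0.02 to 0.15. Mrc1 could not be fitted at a span limit of 0.2. The rank products calls did change. Ranking only probe sets that span at least 0.05 gave an FDR of 0.554 for Kdr and 0.635 for Stab2 and called 0 markers in place of 2. Leaving out 1 rat at a time gave an FDR of 0.00513 to 0.0735 for Kdr and 0.0106 to 0.120 for Stab2, with 0 to 3 markers called. With array weights 4 markers, in place of 2, were higher at an unadjusted limma p under 0.05. Among the pairs, 9 to 13 of 14 correlations were positive.

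Counts over the whole array moved more. At an unadjusted limma p under 0.05, 223 of 4155 probe sets were higher and 303 lower. With no span limit 1315 and 1112 were, of the larger number of 31042 probe sets. With array weights the counts were 385 and 490, again of 4155. Without 1 rat the ranges were 143 to 375 and 189 to 475. Centring gave 297 higher and 223 lower, and quantile normalisation 252 and 256. Rank products called 353 higher and 496 lower, against 25 and 17 when only measured probe sets were ranked, 235 and 293 without the dimmest 25%, and 84 to 580 and 71 to 539 without 1 rat. With the replicate number as a block in limma, 192 were higher and 312 lower, and no probe set passed the adjusted threshold. Kdr (adjusted p 0.358 by limma) and Stab2 (0.389) kept their side. The causes were not tested.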
